A study of Mus musculus with 12 samples.

Results

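The genes described here encode the antimicrobial cargo of Paneth cells and a pair of related secreted lectins of the gut epithelium. The set holds 10 genes of 43432 in the count table, namely Lyz1, Ang4, Mmp7, Itln1, Mptx2, Defa17, Defa24, Defa30, Reg3b and Reg3g, found by matching Ensembl identifiers to gene symbols in GENCODE M21. All 10 passed the filter on low counts that left 16636 genes for testing. Bulk RNA sequencing was done on EpCAM+ epithelial cells sorted from Flare25 mice, in which a red fluorescent reporter marks cells that express Il25, the gene of a cytokine made in gut epithelium mainly by tuft cells. Each of 4 groups had 3 libraries. They were IL-25+ and IL-25- cells of the proximal small intestine (SI-pos and SI-neg) and IL-25+ and IL-25- cells of the gallbladder (GB-pos and GB-neg). All mice carried the reporter allele, and the labels give no wild-type group, no age and do not say whether replicates are separate animals, so each p-value reflects only how the libraries varied, which may be technical. The gallbladder labels name a fluorescent house dust mite allergen, which had been given 1 day earlier, and the small intestine labels do not, although the protocol of all 12 libraries speaks of homeostasis. Tissue and that label cannot be told apart.

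Paneth cells sit at the base of small intestinal crypts and release granules of lysozyme, alpha-defensins and other antimicrobial proteins into the crypt lumen. Mouse alpha-defensins are made as inactive precursors, and matrilysin, the protease encoded by Mmp7, cleaves them to their active form. Reg3b and Reg3g encode secreted C-type lectins that bind bacteria, and both are known to be induced in epithelium by IL-22 and by microbial signals. The gallbladder has a biliary epithelium with no crypts, and Paneth cells are not a known part of it.

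The libraries held 23703449 to 64736650 counts. The 12 tuft cell markers summed to 34253 to 41715 CPM (reads of a gene over the TMM-scaled library size, times 1e6) in SI-pos and 101 to 275 CPM in SI-neg libraries, and to 23964 to 25575 CPM in GB-pos and 44.4 to 175 CPM in GB-neg libraries. GB-neg 1 stood apart. The median enterocyte marker reached 5.41% of its SI-neg 3 CPM there, against 0.104% in GB-neg 2 and 0.107% in GB-neg 3. SI-neg 3 in turn had 1.60 CPM of Sox17, a biliary factor gene, against 0.148 and 0.233 CPM in SI-neg 1 and 2. Results that rest on GB-neg 1 are given with and without it. In bulk samples, fewer cells of a type and less RNA per cell cannot be told apart.

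The bases upstream of 5 members are shown because their patterns differed: Lyz1 and Defa30 were Paneth genes under 1 CPM in every gallbladder library but GB-neg 1, Mmp7 was a Paneth gene at 6.11 CPM or more in each of them, and Reg3b and Reg3g kept a near-fixed ratio in small intestine. Promoters from the RefSeq table on GRCm38.p6 were found for 8 of the 10 members. Each sequence is the gene's own strand, 5′ to 3′, 150 bases without an exon base of that gene in GENCODE M21 (the Reg3b window lies downstream of the gene's annotated first base, between exons). Capitals mark a match to any of the motifs given after the sequences.
Lyz1: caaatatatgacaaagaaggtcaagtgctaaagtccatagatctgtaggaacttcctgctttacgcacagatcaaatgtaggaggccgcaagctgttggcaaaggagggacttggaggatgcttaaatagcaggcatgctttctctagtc
Defa30: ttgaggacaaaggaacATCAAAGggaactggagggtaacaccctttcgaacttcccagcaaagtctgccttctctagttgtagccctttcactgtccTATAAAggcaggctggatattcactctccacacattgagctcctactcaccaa
Mmp7: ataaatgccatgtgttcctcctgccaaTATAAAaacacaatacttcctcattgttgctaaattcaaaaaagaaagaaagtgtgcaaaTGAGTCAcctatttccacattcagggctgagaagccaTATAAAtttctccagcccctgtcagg
Reg3b: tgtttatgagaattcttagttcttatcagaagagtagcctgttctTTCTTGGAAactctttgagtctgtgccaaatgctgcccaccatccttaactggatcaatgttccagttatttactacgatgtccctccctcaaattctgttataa
Reg3g: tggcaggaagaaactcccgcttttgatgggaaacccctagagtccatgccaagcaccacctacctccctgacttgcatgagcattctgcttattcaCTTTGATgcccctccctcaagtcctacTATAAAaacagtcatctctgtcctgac
The Lyz1 sequence is chr10:117292869-117293018 (minus strand), Defa30 is chr8:21134492-21134641 (plus), Mmp7 is chr9:7691940-7692089 (plus), Reg3b is chr6:78370711-78370860 (plus) and Reg3g is chr6:78468875-78469024 (minus).

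The motifs were chosen after these sequences had been seen, and each was searched on both strands of the 250 bases before the RefSeq start. TATAAA, the TATA box, was found in 4 of the 8 members matched and in 12.4% of 32851 promoters. TTCNNNGAA, the STAT element, was found in 2 of 8 (Ang4 and Reg3b) and in 7.02% of promoters. TGANTCA, the AP-1 element, was found in 2 of 8 (Ang4 and Mmp7) and in 6.75% of promoters. ATCAAAG and TTCAAAG, the core letters bound by TCF proteins, were found in 2 of 8 (Defa30 and Reg3g) and 0 of 8 members and in 3.21% and 4.46% of promoters. A second RefSeq start of Mmp7, not shown, also had ATCAAAG and is not in that count. Apart from palindromic sites read on both strands, no match overlapped another. The Reg3b window stops inside a TATAAA that ends 24 bases before the RefSeq start, since an exon is annotated from there, and that partial match is not in capitals. Over the 250 upstream bases Reg3b and Reg3g were 68.9% identical, against 49.0% for Reg3b and Lyz1.

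Setting IL-25+ against IL-25- cells of the small intestine shows how much of this program is read in the tuft fraction. Every member had a lower mean in IL-25+ than in IL-25- cells. The fall passed the test for Ang4, Mmp7, Mptx2 and Defa17, and it did not for the other 6. Those 4 of 10 stand beside 12.8% of all tested genes called lower and 27.2% called in either direction. The CPM ranges of the groups did not overlap for 7 of the 10 members, all lower in IL-25+ cells, against 24.4% of all tested genes lower and 49.3% in either direction. The median log2 fold change of the 10 members was -5.24, against -0.07 over all tested genes. Markers of other cell types moved with the gate. The 12 goblet markers summed to 166 to 579 CPM in SI-pos and 4533 to 60143 CPM in SI-neg libraries, the 12 enteroendocrine markers to 69.0 to 288 CPM in SI-pos and 6986 to 16163 CPM in SI-neg, and the 12 enterocyte markers to 7877 to 9375 CPM in SI-pos and 17895 to 27517 CPM in SI-neg, with no marker of these lists at 0 throughout SI-pos or SI-neg. Mitochondrial genes took 12.1 to 17.2% of counts in SI-pos and 26.6 to 34.9% in SI-neg libraries. The part of these differences in the members' values was not tested.

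**Figure D1:**
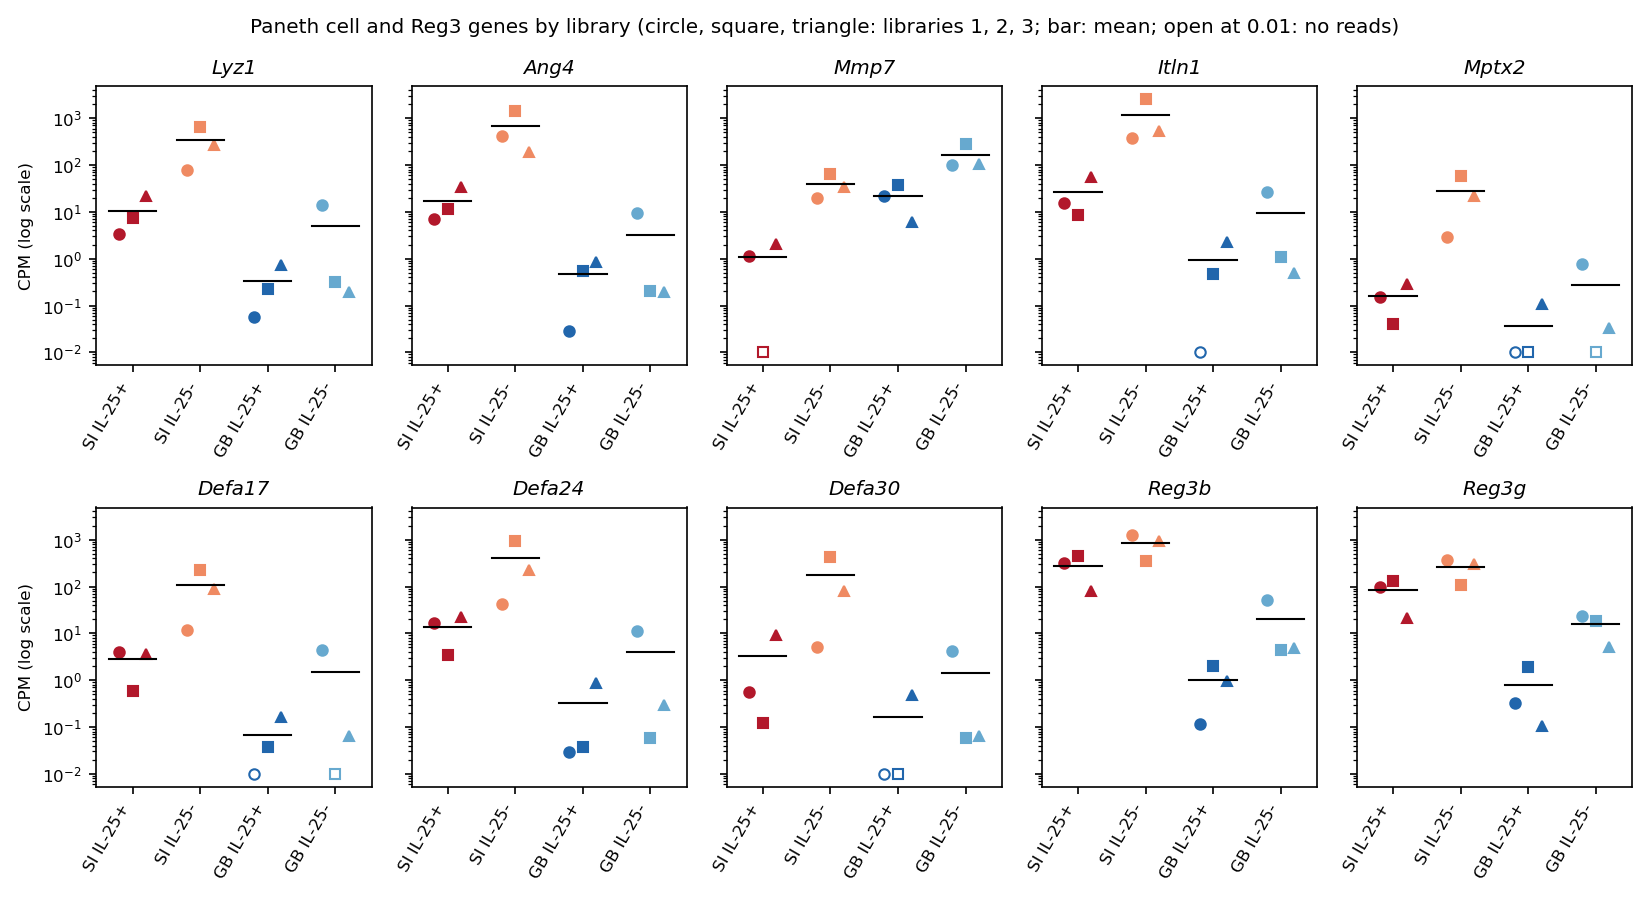
CPM of each gene (log axis) in each library of the 4 groups, with libraries 1, 2 and 3 as circle, square and triangle, the group mean as a bar, and libraries with no reads as open symbols at 0.01. Mmp7 alone among these genes was higher in each gallbladder IL-25- library (98.6 to 287 CPM) than in every small intestine IL-25- library (19.8 to 63.3 CPM).

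Lyz1 (ENSMUSG00000069515, chromosome 10, 117287797 to 117292868 in GRCm38) encodes the Paneth cell lysozyme, which cuts bacterial peptidoglycan. It had 3.39, 7.38 and 21.3 CPM in SI-pos 1 to 3 and 79.4, 659 and 264 CPM in SI-neg 1 to 3. The groups did not overlap, but within each the libraries spread widely, and the log2 fold change of -4.97 ± 1.65 (SE, n = 3 per group) missed the threshold (edgeR adjusted p = 0.0521). Ang4 (ENSMUSG00000060615, chromosome 14, 51763878 to 51773590), an angiogenin-family ribonuclease with antibacterial activity, had 6.94, 11.7 and 33.2 CPM in SI-pos and 416, 1415 and 188 CPM in SI-neg. Every IL-25+ value lay under every IL-25- value, and the log2 fold change was -5.28 ± 1.61 (edgeR adjusted p = 0.0375).

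Mmp7 (ENSMUSG00000018623, chromosome 9, 7692090 to 7699585), the protease that activates the alpha-defensins, had 1.17, 0 and 2.03 CPM in SI-pos and 19.8, 63.3 and 34.5 CPM in SI-neg. It fell by 5.20 ± 1.13 on the log2 scale in IL-25+ cells (edgeR adjusted p = 0.00722). Mptx2 (ENSMUSG00000079180, chromosome 1, 173274382 to 173277777), a mucosal pentraxin found in mouse Paneth cells, had 0.151, 0.0401 and 0.284 CPM in SI-pos, which were 4, 1 and 7 reads. In SI-neg it had 2.85, 57.4 and 21.4 CPM, and the log2 fold change was -7.40 ± 1.70 (edgeR adjusted p = 0.00669). Mmp7 and Mptx2 passed in every alternative fit that gave them a value, 23 for Mmp7 and 22 for Mptx2. Ang4 passed in 12 of 23 and Defa17 in 10 of 23. Without GB-neg 1, 7 members passed, among them Lyz1 (-4.97, edgeR adjusted p = 0.00399). That library enters this comparison only through the filter, scaling, estimate of spread and p-value adjustment shared by all libraries. The share of all genes called in that refit is not set beside the 7.

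Itln1 (ENSMUSG00000038209, chromosome 1, 171518122 to 171535294) encodes intelectin 1, a lectin that binds microbial sugars. It had 15.4, 8.62 and 56.4 CPM in SI-pos and 371, 2609 and 533 CPM in SI-neg, with a log2 fold change of -5.45 ± 1.85 that did not pass (edgeR adjusted p = 0.0563). The groups did not overlap, and the IL-25- libraries alone spanned a wide range.

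The alpha-defensins are pore-forming peptides of Paneth granules. Defa17 (ENSMUSG00000060208, chromosome 8, 21655780 to 21656735) had 4.07, 0.601 and 3.65 CPM in SI-pos and 12.01, 230 and 89.0 CPM in SI-neg (log2 fold change -5.31 ± 1.75, edgeR adjusted p = 0.0485). Defa24 (ENSMUSG00000064213, chromosome 8, 21734494 to 21735471) had 16.4, 3.53 and 21.8 CPM in SI-pos and 42.0, 938 and 227 CPM in SI-neg (-4.85 ± 1.85, edgeR adjusted p = 0.0828). Defa30 (ENSMUSG00000074444, chromosome 8, 21134642 to 21135598) had 0.566, 0.12 and 9.20 CPM in SI-pos and 5.10, 437 and 79.0 CPM in SI-neg (-5.72 ± 2.28, edgeR adjusted p = 0.0952). Only for Defa30 among the 3 did the groups overlap, because SI-pos 3 lay above SI-neg 1. These genes are close copies of each other, so their separate values are uncertain: of the 50-base windows of the annotated transcripts, 91.95% for Defa17, 52.44% for Defa30 and 28.11% for Defa24 also occur in another gene, and Defa3 holds every shared window of Defa17. The share was 17.99% for Mptx2, 16.06% for Lyz1, 7.36% for Mmp7, 4.70% for Ang4, 0.972% for Itln1 and 0 for Reg3b and Reg3g. With close paralogs summed before the fit, Ang4 still passed (-5.12, adjusted p = 0.00419), and the summed alpha-defensins did not (-5.10, edgeR adjusted p = 0.0908).

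The Reg3 lectins were read in every small intestine library. Reg3b (ENSMUSG00000071356, chromosome 6, 78370657 to 78373466) had 312, 440 and 80.4 CPM in SI-pos and 1259, 358 and 920 CPM in SI-neg. Reg3g (ENSMUSG00000030017, chromosome 6, 78466269 to 78468872) had 99.9, 128 and 21.2 CPM in SI-pos and 368, 107 and 303 CPM in SI-neg. For both, SI-pos 2 lay above SI-neg 2, so the groups overlapped. The log2 fold changes of -1.61 ± 1.12 for Reg3b (edgeR adjusted p = 0.326) and -1.64 ± 0.93 for Reg3g (edgeR adjusted p = 0.225) did not pass.

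Reads of this pair kept a near-fixed proportion in small intestine. Reg3g took 24.3, 22.5 and 20.9% of the reads of the pair in SI-pos and 22.6, 23.0 and 24.8% in SI-neg. In gallbladder it took 73.3, 49.1 and 10% in GB-pos, from only 15, 106 and 40 reads, and 31.7, 80.3 and 52.3% in GB-neg, from 5383, 768 and 308 reads. The exact 95% binomial interval in GB-neg 2 was 77.3 to 83.1%, and in SI-neg 3 it was 24.4 to 25.2%. These intervals cover counting error only.

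Per kilobase of exon, the order of the members differed between the gates. In SI-pos, Reg3b led with a mean of 243 ± 160 CPM per kilobase (SD, n = 3), followed by Reg3g at 39.3 ± 26.2 and Defa24 at 33.3 ± 22.5. In SI-neg, Itln1 led with 1026 ± 1094 CPM per kilobase, followed by Defa24 at 961 ± 1129, Ang4 at 949 ± 921 and Reg3b at 740 ± 399. The differences among these leading genes in SI-neg were smaller than their SDs. Mptx2 was last in both, at 0.199 ± 0.154 in SI-pos and 34.3 ± 34.95 in SI-neg. In gallbladder Mmp7 led in both gates, at a mean of 20.6 CPM per kilobase in GB-pos and 152 in GB-neg, and Reg3b was next at 0.901 ± 0.827 and 17.7 ± 23.7. Without GB-neg 1, Reg3g came second in GB-neg at a mean of 5.54 CPM per kilobase and Reg3b followed at 4.04.

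**Figure D2:**
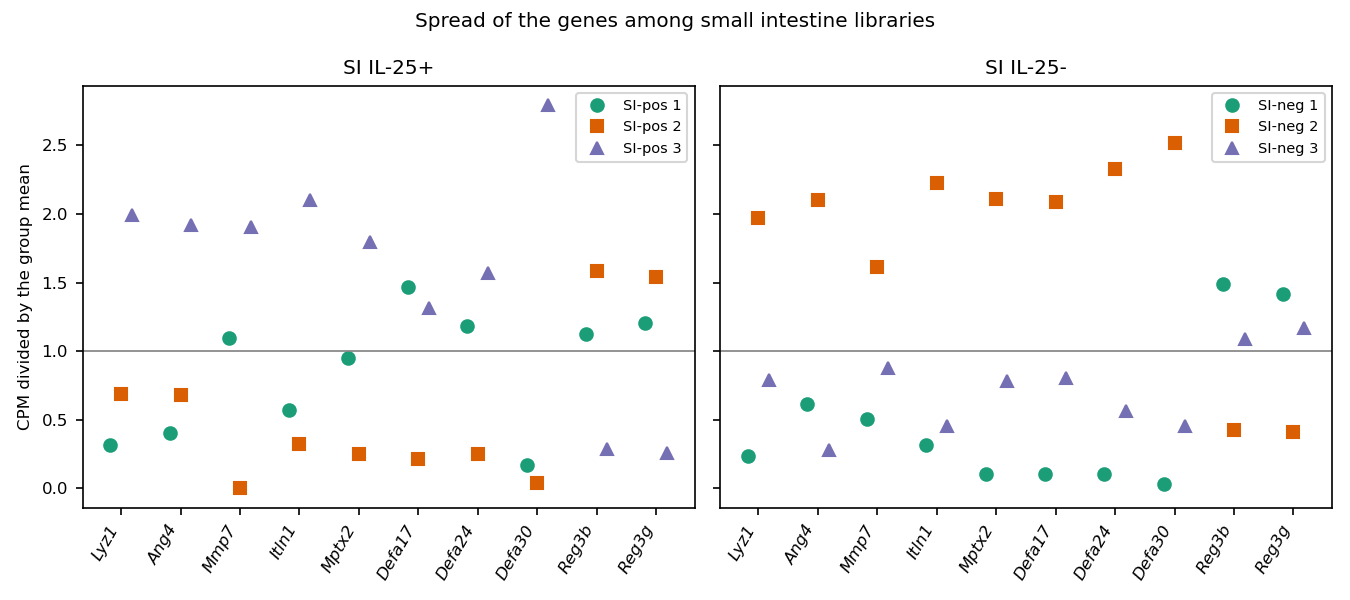
CPM of each gene in each small intestine library divided by the mean of its group (linear axis; the grey line marks the mean). SI-neg 2 was highest for the 8 Paneth genes and lowest for Reg3b and Reg3g, and SI-pos 3 was highest for 7 of the 8 Paneth genes and lowest for Reg3b and Reg3g.

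In the small intestine groups, the library with the highest median of the Paneth genes had the lowest Reg3b and Reg3g, though single Paneth genes ranked differently in the other libraries. In SI-neg 2 the 8 Paneth genes had a median of 2.11 times their group mean, and Reg3b and Reg3g had 0.423 and 0.412 times theirs. In SI-neg 1 the Paneth median was 0.173 times the group mean, and Reg3b and Reg3g had 1.49 and 1.42 times theirs. In SI-pos 3 the Paneth median was 1.91 times the group mean, against 0.290 and 0.255 for Reg3b and Reg3g. Goblet markers were also highest in SI-neg 2 and SI-pos 3, at a median of 1.85 times the group mean in SI-neg 2 and 1.73 times in SI-pos 3, and their part in this pattern was not tested. With 3 libraries a group, no correlation was computed within a group.

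**Figure D3:**
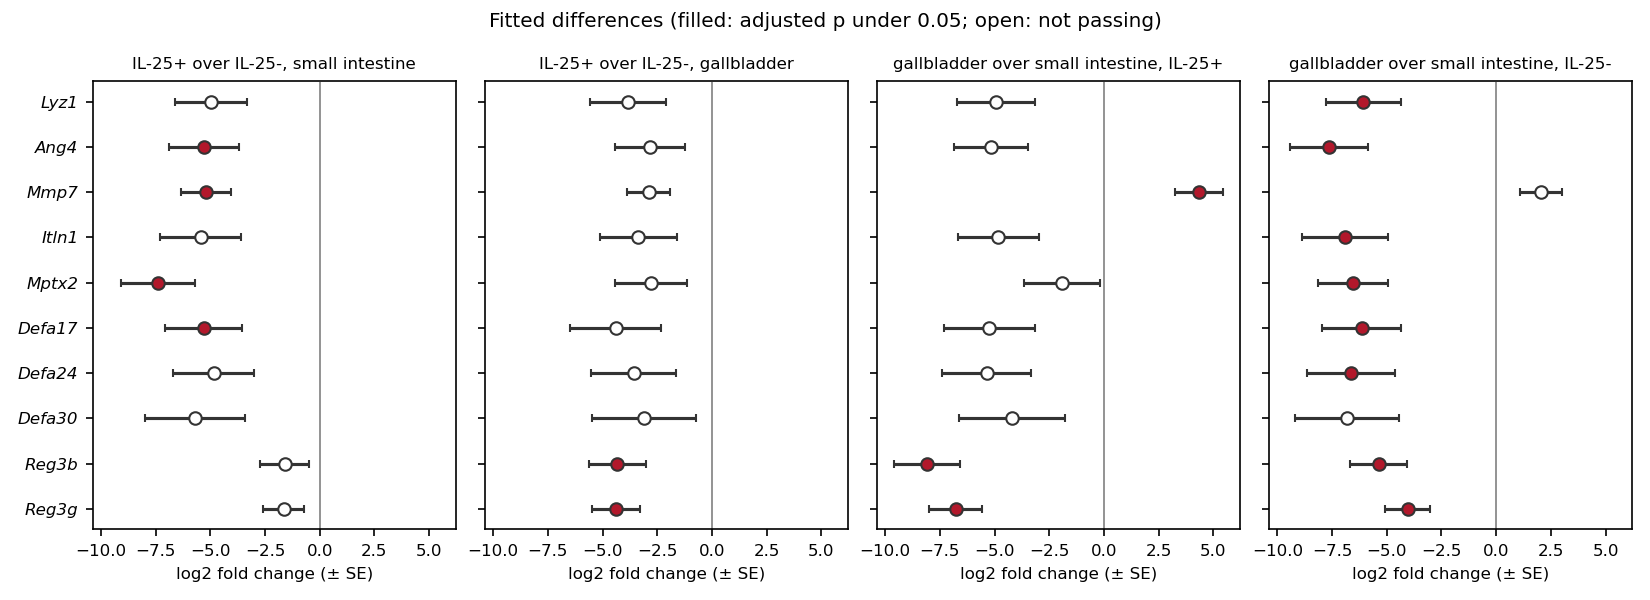
Fitted log2 fold changes with standard errors for the 10 genes in 4 comparisons, with filled points for an adjusted p under 0.05. Mmp7 lay on the positive side between tissues (4.36 in IL-25+ and 2.05 in IL-25- cells), and the other 9 genes lay on the negative side in each panel.

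In each gallbladder library Mmp7 had the most reads of the set. Over the GB-neg libraries Reg3b (3974 reads), Reg3g (2485) and Itln1 (1987) came next, and over the GB-pos libraries Itln1 (98), Reg3b (94) and Reg3g (67). Reg3b and Reg3g fell in IL-25+ cells, 2 of 10 members beside 14.4% of all tested genes called lower and 26.8% called in either direction. The groups did not overlap for 3 of 10 members, Mmp7, Reg3b and Reg3g, against 23.4% of all tested genes lower without overlap and 41.3% in either direction. The 12 goblet markers summed to 189 to 242 CPM in GB-pos and 868 to 983 CPM in GB-neg libraries, and 5 of them were called lower in GB-pos. Muc2, the goblet mucin gene, was at only 5.44, 0.220 and 0.168% of its SI-neg 3 CPM in GB-neg 1 to 3. Mitochondrial genes took 7.13 to 8.83% of counts in GB-pos and 11.2 to 25.0% in GB-neg. The part of these differences in the members' values was not tested. Reg3g had 0.319, 1.93 and 0.108 CPM in GB-pos and 23.9, 18.2 and 5.23 CPM in GB-neg (log2 fold change -4.39 ± 1.10, edgeR adjusted p = 0.0150). Without GB-neg 1 the value was -3.98 (edgeR adjusted p = 0.0293), and without GB-pos 1 it was -4.01 and did not pass (edgeR adjusted p = 0.0661).

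Reg3b had 0.116, 2.003 and 0.969 CPM in GB-pos and 51.5, 4.46 and 4.77 CPM in GB-neg (-4.33 ± 1.30, edgeR adjusted p = 0.0354). GB-neg 1 held 92.5% of the Reg3b reads of its group, and without it the fold change was -2.22 and did not pass (edgeR adjusted p = 0.116). Mmp7 had 21.8, 38.1 and 6.11 CPM in GB-pos and 98.6, 287 and 103 CPM in GB-neg. Every GB-pos value was under every GB-neg value, and the log2 fold change of -2.89 ± 0.99 missed the threshold (edgeR adjusted p = 0.0541).

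The other 7 Paneth genes had 0 to 2.29 CPM in GB-pos libraries. In GB-neg 2 and 3 they had 0 to 1.09 CPM, and in GB-neg 1 they had 0.771 to 27.1 CPM. Lyz1, for example, had 0.0580, 0.223 and 0.726 CPM in GB-pos and 14.1, 0.325 and 0.195 CPM in GB-neg. GB-neg 1 held 97.4 to 99.4% of the reads of each of the 7 in its group. None of the 7 passed the test, and without GB-neg 1 the sign of each fold change turned positive, still without passing.

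**Figure D4:**
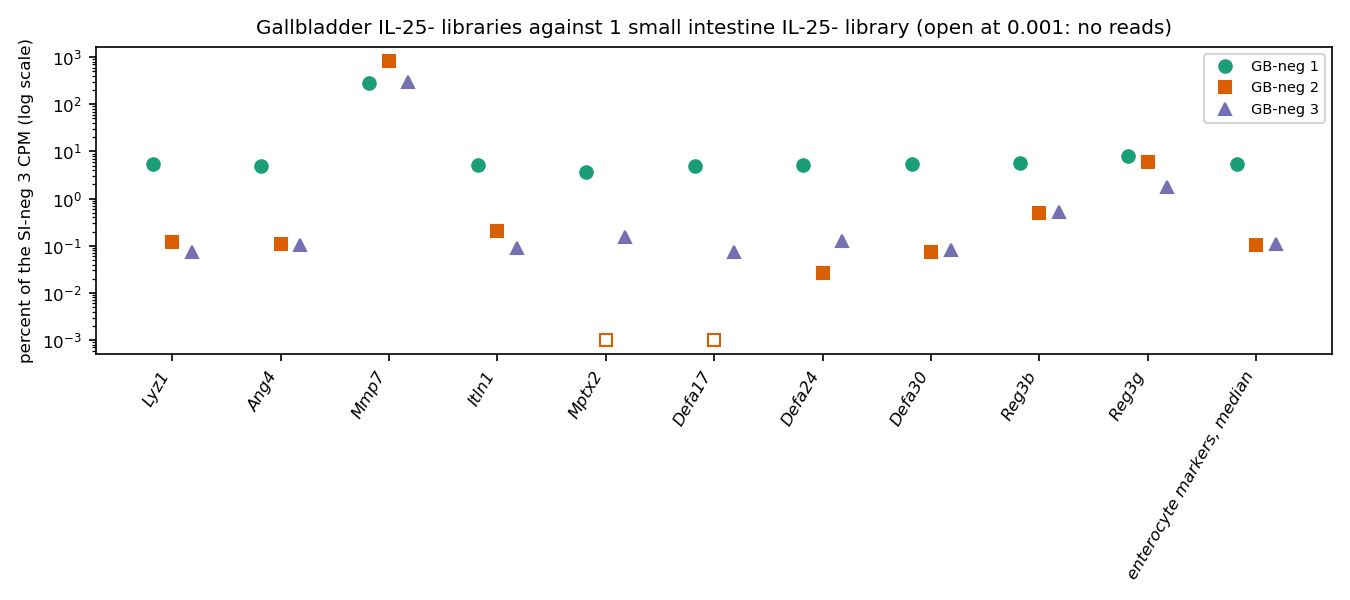
CPM in each gallbladder IL-25- library as a percent of the CPM in SI-neg 3 (log axis), for the 10 genes and for the median of 12 enterocyte markers, with libraries with no reads as open symbols at 0.001. In GB-neg 1, 8 of the 10 genes lay between 3.61 and 5.60%, beside 5.41% for the enterocyte median, and Mmp7 (285%) and Reg3g (7.90%) lay above.

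The level of the 7 Paneth genes other than Mmp7 in GB-neg 1 depended on the small intestine library it was set against. It was 2.26 to 83.3% of the SI-neg 1 CPM, 0.663 to 2.14% of the SI-neg 2 CPM and 3.61 to 5.37% of the SI-neg 3 CPM. The 7 genes spread least against SI-neg 3, which was chosen for the plot with values of these data known. Lyz1 was at 5.35%, Ang4 at 4.99%, Itln1 at 5.09%, Mptx2 at 3.61%, Defa17 at 4.91%, Defa24 at 5.04% and Defa30 at 5.37% of the SI-neg 3 CPM. Reg3b was at 5.60%, the goblet mucin gene Muc2 at 5.44% and the enterocyte median at 5.41%. Of the relatives, Reg4 was at 5.33%, Lyz2 at 7.76% and Reg3a at 7.97%. Some were higher, with Ang at 20.7%, Reg3d at 52.0%, Mptx1 at 56.1% and Reg1 at 121%. Reg3d rests on 16 reads in GB-neg 1 and 17 in SI-neg 3, and Mptx1 on 68 and 67. Defa24 took 57.1% of the reads of the 3 alpha-defensins in GB-neg 1 (exact 95% interval 54.4 to 59.6%), against 71.1, 58.5 and 57.5% in SI-neg 1 to 3. The part of the other intestinal transcripts in these values was not tested. In GB-neg 2, Reg3g was at 6.01% of SI-neg 3 while the enterocyte median was at 0.104%. Mmp7 was at 285, 830 and 299% of SI-neg 3 in GB-neg 1 to 3. Mmp7 was thus read in all of the gallbladder libraries, and the label of Paneth gene does not hold for it there.

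Between tissues, Mmp7 differed in direction from the rest. In IL-25+ cells it was higher in gallbladder than in small intestine, with 21.8, 38.1 and 6.11 CPM in GB-pos and 1.17, 0 and 2.03 CPM in SI-pos (4.36 ± 1.10, edgeR adjusted p = 0.0165, 1 of 10 members beside 10.5% of all tested genes called higher). It passed in 20 of 22 alternative fits. In IL-25- cells the groups did not overlap, but the fold change of 2.05 ± 0.96 did not pass (edgeR adjusted p = 0.152).

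Reg3b and Reg3g were lower in gallbladder IL-25+ cells, 2 of 10 members beside 13.1% of all tested genes called lower and 23.7% called in either direction. The log2 fold change of GB-pos over SI-pos was -8.10 ± 1.52 for Reg3b (edgeR adjusted p = 0.00438) and -6.78 ± 1.20 for Reg3g (edgeR adjusted p = 0.00287). The other 7 members did not pass, at -5.36 to -1.92. The groups did not overlap for 7 members that were lower and for Mmp7, which was higher, against 24.5% of all tested genes lower, 17.3% higher and 41.9% in either direction. Without GB-neg 1, 8 members passed in IL-25+ cells in place of 3. The share of all genes called in that refit is not set beside this count, so it is no result about the members alone. In IL-25- cells 8 of 10 members were called lower in gallbladder, beside 11.7% of all tested genes called lower, 13% higher and 24.6% in either direction. Among those 8, Ang4 had the largest fall at -7.64 ± 1.79 (edgeR adjusted p = 0.0136), Reg3b was at -5.38 ± 1.32 (edgeR adjusted p = 0.0162) and Reg3g at -4.03 ± 1.03 (edgeR adjusted p = 0.0179). Defa30 did not pass (-6.82 ± 2.40, edgeR adjusted p = 0.0676). The groups did not overlap for any of the 10, lower for 9 and higher for Mmp7, against 21.7% of all tested genes lower, 21.8% higher and 43.5% in either direction without overlap. Without GB-neg 1, the fold change of Lyz1 was -10.25 in place of -6.06, that of Ang4 was -11.63 and that of Mptx2 was -10.39. Leaving out any 1 library gave 2 to 9 members called in IL-25- cells, with 2 called without GB-neg 3. The shares of all genes called in those refits are not set beside these counts either, so they are no result about the members alone.

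The gate effect was not shown to differ between the tissues for any member. Of the 10 interactions (gallbladder effect minus small intestine effect) 0 passed in edgeR, 0 had an unadjusted p under 0.05, and DESeq2 and limma-voom also called 0, beside 9.23% of all tested genes called in edgeR, 3.63% higher and 5.6% lower. The interaction was 2.31 ± 1.37 for Mmp7 (edgeR adjusted p = 0.357) and -2.75 ± 1.37 for Reg3g (edgeR adjusted p = 0.269). Without GB-neg 1, Ang4 (6.49, edgeR adjusted p = 0.0439) and Mptx2 (8.51, edgeR adjusted p = 0.0437) passed.

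Across the 12 libraries, the genes most like Lyz1 by Pearson correlation of log2 CPM, members aside, were Muc2 (0.974), Hsd17b13 (0.958), Clca1 (0.958), Ptpn22 (0.958) and Mep1a (0.957). Of the members, Itln1 (0.985) and Ang4 (0.982) were closest to Lyz1, and Mmp7 was at -0.09. The genes most like Reg3g were Cyp2u1 (0.977), Cds1 (0.975), Itpka (0.974), Kbtbd11 (0.973) and 2210407C18Rik (0.971), and Reg3b was at 0.951. These correlations describe 12 points that fall into 4 groups and carry no test.

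Of 6 close relatives of the members that were tested, 4 (66.7%) fell in small intestine IL-25+ cells, beside 12.8% of all tested genes. In gallbladder IL-25+ cells 2 (33.3%) fell, beside 14.4%. Reg1, a secreted C-type lectin gene of the same family, had 23.2, 61.5 and 23.9 CPM in GB-pos and 336, 556 and 672 CPM in GB-neg, and 79.8, 59.9 and 69.3 CPM in SI-pos and 160, 206 and 277 CPM in SI-neg. It fell in IL-25+ cells of gallbladder (-3.85 ± 0.41, edgeR adjusted p = 2.2e-05) and of small intestine (-1.62 ± 0.38, edgeR adjusted p = 0.00653), and in IL-25- cells it was higher in gallbladder (1.28 ± 0.37, edgeR adjusted p = 0.0237). Reg4, another lectin of the family, had 0.226, 0.160 and 3.08 CPM in SI-pos and 150, 221 and 199 CPM in SI-neg (-7.36 ± 1.94, edgeR adjusted p = 0.0204), and GB-neg 1 held 99.1% of its reads in the GB-neg group. Ang, the angiogenin gene of the same family as Ang4, had 3.36, 2.57 and 2.27 CPM in SI-pos and 28.3, 28.1 and 16.5 CPM in SI-neg (-3.15 ± 0.55, edgeR adjusted p = 0.00101), and it had 2 reads in GB-pos and 608 in GB-neg libraries. Mptx1, a second mucosal pentraxin gene, had 3 reads in SI-pos and 550 in SI-neg libraries. Lyz2, the lysozyme gene of macrophages and other myeloid cells, had 0.561 to 7.05 CPM in SI-pos and 0.0889 to 3.07 CPM in SI-neg and did not pass (1.72 ± 1.41, edgeR adjusted p = 0.395).

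Of a list of 25 genes, chiefly Paneth cell regulators and granule handling genes, 3 rose and 8 fell in small intestine IL-25+ cells. These are 12% and 32% of the list, beside 14.5% of all tested genes called higher and 12.8% lower, and the median over the 25 was -0.57 (log2). Spdef, a factor of the goblet and Paneth lineages, fell (-5.41 ± 0.94, edgeR adjusted p = 0.000953), as did the potassium channel gene Kcnn4 (-1.76 ± 0.34, edgeR adjusted p = 0.00189). So did Copz2 (-8.50), Clps (-7.41), Atoh1 (-5.53), Nupr1 (-4.99), Gfi1 (-4.90) and Fzd5 (-0.87), with edgeR adjusted p from 0.00535 to 0.0441. Sox9, a factor that Paneth cells need and that tuft cells also express, rose (2.78 ± 0.35, edgeR adjusted p = 8.8e-05), as did the receptor gene Kit (3.92 ± 0.37, edgeR adjusted p = 6.95e-06) and Rab2a, a vesicle transport gene (1.01 ± 0.27, edgeR adjusted p = 0.0152). In gallbladder 3 rose and 2 fell, 12% and 8% of the list, no more than the 12.4% of all tested genes called higher and 14.4% lower. Kit (5.46 ± 0.40, edgeR adjusted p = 8.86e-07) and Sox9 (3.42 ± 0.36, edgeR adjusted p = 1.9e-05) rose, and the ephrin receptor gene Ephb3 (-2.83 ± 0.48, edgeR adjusted p = 0.000803) and Nupr1 (-4.38 ± 1.46, edgeR adjusted p = 0.0452) fell. There Spdef rose, with 19.4, 15.5 and 10.5 CPM in GB-pos and 1.58, 1.36 and 0.0974 CPM in GB-neg (3.88 ± 0.87, edgeR adjusted p = 0.00498). Between tissues, Xbp1, a factor of secretory stress responses, was higher and Ephb2 lower in gallbladder, in IL-25+ cells (1.45 and -1.40) and in IL-25- cells (1.44 and -1.67).

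Of 16 genes of the pathways that induce Reg3 genes, 2 rose and 6 fell in small intestine IL-25+ cells, and 1 rose and 6 fell in gallbladder IL-25+ cells. The share that rose, 12.5% in small intestine and 6.2% in gallbladder, was under the 14.5 and 12.4% of all tested genes called higher, and the share that fell was 37.5% in each, beside 12.8 and 14.4% called lower. Il22ra1, the ligand-binding chain of the IL-22 receptor, had 0, 0.0371 and 0.135 CPM in GB-pos and 16.1, 26.0 and 19.4 CPM in GB-neg (-8.33 ± 0.68, edgeR adjusted p = 2.25e-06). It had 12.7, 23.4 and 14.4 CPM in SI-pos and 73.9, 124 and 55.9 CPM in SI-neg (-2.33 ± 0.46, edgeR adjusted p = 0.00239). Socs3, a feedback inhibitor induced by STAT3, fell in IL-25+ cells of small intestine (-2.37 ± 0.31, edgeR adjusted p = 9.42e-05) and of gallbladder (-3.02 ± 0.31, edgeR adjusted p = 1.32e-05). Il10rb, the shared second chain of the receptor, rose in both (1.48 ± 0.22, edgeR adjusted p = 0.00026, and 2.35 ± 0.22, edgeR adjusted p = 7.25e-06). Il6st, the shared receptor chain of the IL-6 family, fell in small intestine (-1.56 ± 0.23, edgeR adjusted p = 0.000304) and in gallbladder (-1.23 ± 0.23, edgeR adjusted p = 0.00157). Il17ra, an IL-17 receptor gene, rose in small intestine (1.54 ± 0.26, edgeR adjusted p = 0.00065). Nfkbiz, an NF-kappa-B cofactor gene, fell in small intestine (-1.33 ± 0.24, edgeR adjusted p = 0.00112) and in gallbladder (-2.34 ± 0.25, edgeR adjusted p = 1.65e-05). Between tissues, 6 of the 16 were higher and 2 lower in gallbladder IL-25+ cells, and 7 were higher and 2 lower in gallbladder IL-25- cells. Socs3 (2.59 in IL-25+ and 3.24 in IL-25- cells), Il1r1 (6.03 and 4.51) and Il6st (2.50 and 2.16) were higher in both. Irak4 was lower in gallbladder IL-25+ cells (-1.14). The shares higher were 37.5 and 43.8%, beside 10.5 and 13% of all tested genes, and the share lower was 12.5% in each, beside 13.1 and 11.7%.

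Of 30 other epithelial antimicrobial genes, 18 were tested, and 8 of them (44.4%) fell in small intestine IL-25+ cells, beside 12.8% of all tested genes. In gallbladder 10 (55.6%) fell, beside 14.4%. Pigr, the receptor that carries IgA across the epithelium, fell in both (-2.15 ± 0.32 in small intestine, edgeR adjusted p = 0.000327, and -2.51 ± 0.33 in gallbladder, edgeR adjusted p = 0.000108). Nlrp6, an inflammasome sensor, fell by 2.54 and 3.42 on the log2 scale, Duox2, an oxidase that makes hydrogen peroxide, by 2.65 and 3.27, and Sprr2a3 by 2.25 and 4.30, in small intestine and gallbladder in that order. Wfdc2, a secreted protease inhibitor gene, was higher in gallbladder than in small intestine IL-25- cells (7.19 ± 1.14, edgeR adjusted p = 0.00088), as was Ltf, the lactoferrin gene (6.02 ± 1.36, edgeR adjusted p = 0.0104). Of the 18, 1 was higher (5.6%) and 7 lower (38.9%) in gallbladder IL-25+ cells, beside 10.5 and 13.1% of all tested genes. In gallbladder IL-25- cells 2 were higher (11.1%) and 7 lower (38.9%), beside 13 and 11.7%. Sprr2a3 was lower in both (-7.08 and -5.04), as was Ccl25, a gut-homing chemokine gene (-4.34 and -5.06). Lypd8 was lower in both as well (-8.69 in IL-25+ and -5.66 in IL-25- cells).

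Of 7 ligands known from the Paneth niche, the 6 epidermal growth factor family and Notch ligands were tested, and Wnt3 did not pass the filter. In small intestine IL-25+ cells 1 rose and 2 fell, 16.7 and 33.3% of the 6, beside 14.5 and 12.8% of all tested genes. In gallbladder 1 rose and 3 fell, 16.7 and 50%, beside 12.4 and 14.4%. The share that rose was thus near that of all genes. Btc, an epidermal growth factor family ligand gene, fell in both (-3.35 ± 0.87, edgeR adjusted p = 0.0124, and -3.05 ± 0.83, edgeR adjusted p = 0.0157), as did Areg (-3.55 ± 0.95, edgeR adjusted p = 0.0145, and -4.53 ± 1.01, edgeR adjusted p = 0.00483). Tgfa rose in small intestine (0.89 ± 0.29, edgeR adjusted p = 0.0366) and fell in gallbladder (-0.90 ± 0.29, edgeR adjusted p = 0.0364), and the Notch ligand gene Dll4 rose in gallbladder (4.21 ± 1.25, edgeR adjusted p = 0.0255). Of 30 further alpha-defensin genes, 19 were in the table and 2 were tested. Defa3 was called lower in small intestine IL-25+ cells (edgeR adjusted p = 0.0189), with 2 reads in SI-pos and 792 in SI-neg libraries.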

How the data were processed

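RNA of 12 sorted libraries, 3 in each of 4 groups by the labels, was analysed from the deposited table of raw read counts per gene. Per the submitters' processing notes these come from STAR 2.7.2b on GRCm38, and the notes also list DESeq2 1.26. The counting tool, its strand setting and its annotation are not given in the sources used here, and the Nextera XT kit does not mark strand. Of 23 columns, 11 matched no sample and were not used. A GENCODE M21 symbol was found for 42548 of 43432 genes. Genes were filtered with filterByExpr (minimum count 10), scaled by TMM and tested with edgeR 4.0.16 (R 4.3.3) by two-sided quasi-likelihood F tests over all 12 libraries with group as the only factor, with Benjamini-Hochberg adjustment over 16636 genes and a threshold of 0.05. The standard error is the fold change over the square root of F. A count of 0 allows up to 3 reads, 0.0463 to 0.127 CPM of a library's total, for counting error only. No replicate pair agreed within sampling noise.

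The 23 alternatives were RLE scaling, DESeq2 1.42.0, limma-voom (limma 3.58.1), other filters, replicate blocks, the compared groups alone, leaving out libraries, dropping mitochondrial genes and summing paralogs. On counts simulated with the same spread for every gene, the procedure made few false calls and missed most of the smaller changes put in. That setting and a lower pass mark were chosen after a first result had been seen. Genes with a spread as wide as that of the members were not simulated, so false calls among such genes were not checked. The members and lists were chosen with earlier results of these data known. All members are named. Genes of the lists are counted, and named where they are a close relative of a member, 1 of the 4 with the lowest adjusted p of their list in a comparison, or called against its majority. A few that the rule also names appear in the counts only. Outside that rule, the genes of the Paneth regulator list that fell in small intestine IL-25+ cells are all named. Values of Sox17 and of the tuft, goblet and enterocyte markers describe the libraries.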

Additional observations from a re-analysis of the deposited data

Results flagged for a closer look

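No member had a gate effect that differed between the tissues by the edgeR interaction test. Cell type markers aside, 10 genes of the lists did. Of all tested genes 9.23% were called, 3.63% higher and 5.6% lower. Of the 25 genes of the Paneth regulator list 8% were higher and 8% lower, and of 16 Reg3 pathway genes 6.2% and 6.2%. Of 6 niche ligands 16.7% were higher and 16.7% lower, and of 6 close relatives 0% and 33.3%. Of 18 other antimicrobial genes and 2 further alpha-defensins 0 were called. Each value given next is the gallbladder effect minus the small intestine effect, IL-25+ over IL-25-, on the log2 scale, with n = 3 libraries per group. It was -6.00 for Il22ra1 (edgeR adjusted p = 0.000438), 9.28 for Spdef (0.000621), -4.53 for Ang (0.00702), 2.08 for Kcnn4 (0.0134) and 9.86 for Il6ra (0.0135). It was -1.79 for Tgfa (0.0153), -2.23 for Reg1 (0.0177), -1.54 for Rab2a (0.0233), -2.26 for Ephb3 (0.0446) and 5.84 for Dll4 (0.0470). Ang had 2 reads over the GB-pos libraries against 608 over the GB-neg libraries, and Il6ra had 1 read over the SI-pos libraries, so the sizes of those values depend on the fit.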

How the results depend on the processing

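The number of members past the threshold depended on the fit, and the cause was not tested. Except for the totals given below, the shares of all genes called in the alternative fits are not set beside these counts. The counts are thus no result about the members alone. In small intestine (IL-25+ over IL-25-, 4 as reported) it was 8 with DESeq2, 7 with limma-voom, 2 with no filter, 7 with the compared groups alone and 7 without SI-neg 3 and GB-neg 1 together. In gallbladder (2 as reported) it was 4, 1 and 1 with DESeq2, limma-voom and no filter, and 1 without that pair. For GB-pos over SI-pos (3) it was 8 with DESeq2, 0 with limma-voom, 5 with the stricter filter, 8 with the groups alone and 8 without the pair. For GB-neg over SI-neg (8) it was 3 with no filter and 5 with the groups alone. For the interaction (0) it was 1 without the pair. Leaving out 1 library gave 2 to 7, 0 to 2, 2 to 8, 2 to 9 and 0 to 2 members in that order of comparisons. Over all genes, limma-voom called 6832 in small intestine (4529 as reported) and DESeq2 called 2364 interactions (1536). RLE scaling moved the median of all genes by -0.12 in small intestine, 0.11 for GB-pos over SI-pos and 0.16 for the interaction.

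Same-numbered libraries deviated together with correlations of -0.05 to 0.162, so the replicate numbers were not taken to pair samples. With the replicate block, 2 members passed in small intestine, 1 in gallbladder and 4 for GB-neg over SI-neg, and with the block nested in tissue 2 and 1.

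Without GB-neg 1 the gallbladder fold change turned positive for Lyz1 (0.38), Ang4 (1.20), Itln1 (0.23), Mptx2 (1.12), Defa17 (1.05), Defa24 (0.94) and Defa30 (1.42), and without SI-neg 3 as well it was 0.38, 1.20, 0.23, 1.10, 1.05, 0.94 and 1.42. Their range over the fits that leave out 1 library started at -5.19, -3.60, -5.41, -6.35, -6.27, -6.80 and -8.73, each without GB-pos 3. The interaction ranged from -0.22 (without GB-pos 3) to 5.35 (without GB-neg 1) for Lyz1, and in the same way from -0.96 to 6.37 for Defa17, -1.95 to 5.79 for Defa24 and -3.01 to 7.15 for Defa30. It was also negative without SI-neg 2 for Defa17 and Defa24. Of the members' values under the alternatives, 932 kept their direction and side of the threshold, 65 newly passed, 93 no longer passed and 20 changed sign. Genes near 0 in gallbladder are limited by depth, since a few reads set their values.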
